A study of Mus musculus with 153 samples.

Results

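Sodium, calcium and HCN channels set how neurons start, shape and repeat their electrical signals, and their genes were followed here in 3 classes of hippocampal neurons. The genes were those whose symbols match the naming patterns of the voltage-gated sodium channel subunits (Scn with a number and a or b), the voltage-gated calcium channel subunits (Cacna1, Cacna2d and Cacnb) and the hyperpolarization-activated channels (Hcn). This gave 35 genes of 24391 in the count tables: 9 sodium channel alpha subunits, 4 sodium channel beta subunits, 10 calcium channel alpha1 subunits, 4 alpha2delta subunits, 4 calcium channel beta subunits and 4 HCN subunits. The tables list the gene of one widely expressed sodium channel as Scn2a1, a symbol outside these patterns, so it is not a member and the shares of the sodium channel family below leave it out.

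Sodium channel alpha subunits form the pore that carries the rising phase of the action potential, and their beta subunits adjust gating and act as adhesion molecules. Calcium channel alpha1 subunits form the pores that let calcium in at synaptic terminals, cell bodies and dendrites, while the alpha2delta and beta subunits bring those pores to the membrane. HCN channels open on hyperpolarization, carry the current known as Ih, and damp synaptic input in pyramidal dendrites and speed signals in parvalbumin interneurons. Mutations of SCN1A cause Dravet syndrome in humans, and in mice loss of one copy of Scn1a weakens the firing of inhibitory interneurons.

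The study sequenced polyA RNA of mouse dorsal hippocampus, both RNA on ribosomes purified from 1 neuron class (TRAP, translating ribosome affinity purification; called purified here) and RNA of the total lysate. The mice carried the TRAPfl allele with 1 of 3 Cre drivers, as the genotypes Pvalb.Cre/TRAPfl, Sst.Cre/TRAPfl and Camk2a.Cre/TRAPfl, in control and shocked mice alike. The cells are those in which the driver is or was active: Pvalb and Sst are genes of parvalbumin and somatostatin interneurons, and Camk2a one of excitatory neurons. In each line, mice were conditioned with a shock in a new box (shock), placed in the box without shock (box), or left in the home cage, and the sets are labelled 15 min and 60 min. Ages are not given in the sources used here. Of the columns of counts, 151 were matched to samples or groups, with 3 to 6 libraries per group, and line and set are confounded with the 6 tables. The design asks which channel genes each neuron class carries, whether shock or the box changed them, and whether these changes differed between lines and sets.

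Libraries held 9043042 to 397228206 counts, with a median of 71403674. In the home cage, 7 and 8 of 8 general GABA markers and 5 of 5 parvalbumin markers were higher in the purified than in the lysate libraries of the Pvalb 15 and 60 min sets, 6 of 6 somatostatin markers were higher in both Sst sets, and 5 and 7 of 8 pyramidal markers in the Camk2a 15 and 60 min sets. Camk2a itself did not pass in the Camk2a 15 min set (log2 0.81, adjusted p = 0.0559). Purified RNA of the Sst line held Pvalb RNA above its lysate as well as Sst RNA: at 15 min the log2 fold change was 4.97 for Pvalb and 3.81 for Sst, and at 60 min 2.498 for Pvalb and 4.23 for Sst. The Pvalb line likewise held Sst RNA above its lysate, by 1.346 at 15 min (adjusted p = 0.0309) and 0.603 at 60 min (adjusted p = 0.0107). Pvalb itself stood at 5.719 and 5.654 there. In bulk RNA, fewer cells of a type and less RNA per cell cannot be told apart. Fold changes below are log2 values fitted by edgeR, p-values are adjusted over all genes of a contrast, and a gene is said to have risen or fallen only at an adjusted p under 0.05. Levels are CPM, read counts scaled to the library total, or, where genes are compared with each other, CPM per kilobase of exon. The scaling of edgeR put purified-over-lysate fold changes 0.10 to 0.51 above the log2 ratio of the mean CPM. The size factors of DESeq2 would shift fold changes by -0.13 to 0.09 from these.

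Purified and lysate RNA of home cage mice differed in the largest number of channel genes in the Pvalb 60 min set. In the Pvalb 60 min set 11 channel genes were higher and 11 lower in purified than in lysate RNA, of 33 tested, while 49.8% of all genes passed (23.4% higher, 26.4% lower). In the Pvalb 15 min set 7 were higher and 6 lower of 33 (all genes 21.7%, with 11.5% higher and 10.1% lower). The Sst line gave 7 higher and 1 lower of 33 at 15 min (all genes 29.9%, with 16.6% higher and 13.3% lower). At 60 min it gave 7 higher and 4 lower of 34 (25.9%, with 13.9% higher and 12% lower). The Camk2a line gave 3 higher and 2 lower of 29 at 15 min (19.6%, with 10.7% higher and 8.88% lower). At 60 min it gave 8 higher and none lower of 32 (31.8%, with 14.1% higher and 17.7% lower). The share of channel genes that passed was above that of all genes in both Pvalb sets and the Sst 60 min set and below it in the other sets, a difference that was not tested. Scn2b and Scn8a were higher in purified RNA in all 6 sets.

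Purified and lysate libraries carry the same numbers in the labels, which do not say whether a number marks 1 mouse. Sex read from Y-linked genes was the same in all same-numbered pairs of the Camk2a 15 min (10 pairs), Pvalb 15 min (11) and Sst 60 min (13) sets, but differed in 4 of 14 pairs of the Pvalb 60 min set and in 1 of 12 in each of the Camk2a 60 min and Sst 15 min sets. With the number within each condition as a block, 5 channel genes were higher and 2 lower in the Pvalb 15 min set, where 1808 of all genes passed in place of 3723. Scn8a (adjusted p = 0.0539), Scn2b (0.0643), Scn3b (0.0914), Cacna1h (0.0576), Cacna2d3 (0.0875) and Cacnb3 (0.229) then no longer passed there, with their directions kept. The Camk2a 15 min set gave 6 higher and 2 lower with the block, where 3495 of all genes passed in place of 3069. The Sst 60 min set gave 12 higher and 2 lower, where 3640 passed in place of 4372. In the Pvalb 60 min set the block gave 7 higher and 7 lower, as many in all as in the Sst 60 min set. Of all genes 5981 passed there in place of 8544.

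**Figure D1:**
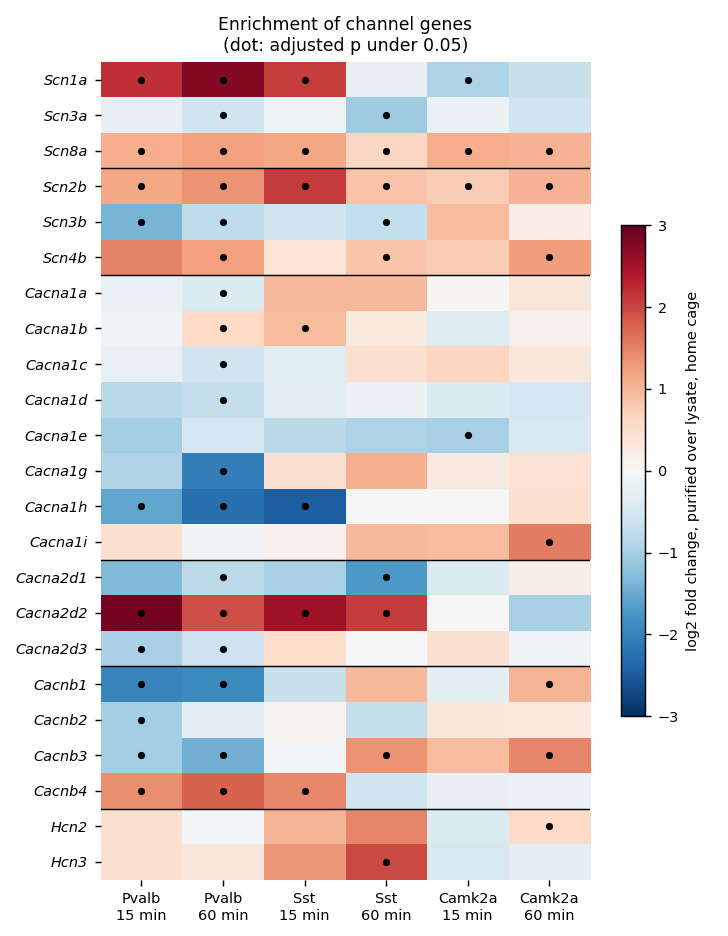
Log2 fold change of purified over lysate RNA in home cage mice (colour, scale -3 to 3) for 23 of the channel genes with a mean of at least 5 CPM in a purified home cage group and no group at 0, with the lines and sets in columns and a dot where the adjusted p is under 0.05. Scn1a and Cacna2d2 are high in the Pvalb and Sst 15 min columns, and Scn2b and Scn8a carry a dot in every column.

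Among the sodium channel alpha subunits, Scn1a (chromosome 2, 66270778 to 66440840, minus strand, GRCm38) marked the interneuron lines. In Pvalb 60 min home cage mice it had 206 CPM at the lowest, 265 at the median and 351 at the highest in 6 purified libraries, against 30.5, 50.2 and 65.6 CPM in the 6 lysate libraries. Every purified library was above every lysate library, and the log2 fold change was 2.75 ± 0.25 (SE, adjusted p = 9.30e-11). For purified against lysate RNA, no share of all genes with such separation is given here or below. Separation is therefore not read as particular to the genes named. The Pvalb 15 min purified libraries had 222, 231, 279 and 243 CPM, against 51.0, 85.3 and 59.2 CPM in lysate (log2 2.19 ± 0.41, adjusted p = 0.000532). The Sst 15 min purified libraries had 133, 375, 165 and 147 CPM, against 65.7, 49.0, 65.0 and 94.0 CPM in lysate, again without overlap (log2 2.08 ± 0.41, adjusted p = 0.000690). The Sst 60 min set did not show this: its purified libraries had 37.6, 131, 35.1, 95.01 and 58.6 CPM, against 105, 108, 133, 54.6 and 41.1 CPM in lysate, with full overlap (log2 -0.25, adjusted p = 0.706). These purified libraries differed widely in interneuron RNA, with somatostatin markers summing to 457 to 8511 CPM and GABA markers to 709 to 2768 CPM.

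In the Camk2a line Scn1a lay on the other side. Its 15 min purified libraries had 44.4, 42.8 and 45.9 CPM, against 122, 104 and 88.9 CPM in lysate, and it fell by 0.93 ± 0.21 on the log2 scale (adjusted p = 0.00360). This call was lost with an offset per library for GC content and length (log2 -0.12, adjusted p = 0.678), an alternative chosen after the data were seen. The 60 min purified libraries had 32.5, 30.6, 24.9 and 48.3 CPM, against 55.9, 103, 45.4 and 55.4 CPM in lysate; 1 purified library overlapped the lysate range and the gene did not pass.

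Scn8a, the sodium channel of axon initial segments and nodes (chromosome 15, 100869858 to 101045938, plus strand), had the highest mean level per length of the alpha subunits in every purified home cage group, within the spread of Scn1a in the Pvalb sets and the Sst 15 min set. It averaged 413 ± 39.6 CPM in purified and 217 ± 28.4 CPM in lysate RNA of the Pvalb 60 min set (SD, n = 6 each). Camk2a 60 min mice had on average 444 ± 27.8 CPM in purified and 262 ± 31.0 CPM in lysate RNA (SD, n = 4 each). Its fold change on the log2 scale lay between 0.62 ± 0.19 (Sst 60 min, adjusted p = 0.0195) and 1.23 ± 0.13 (Pvalb 60 min, adjusted p = 3.02e-09). The Sst 60 min call was lost with the GC and length offsets (log2 0.26, adjusted p = 0.197).

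Per length and among the 9 alpha subunits, the mix differed between lines. In the purified home cage libraries of the 60 min sets Scn1a made up 46.4 ± 4.45% of the family in the Pvalb line (n = 6), 25.1 ± 9.92% in the Sst line (n = 5) and 9.39 ± 2.99% in the Camk2a line (SD, n = 4). Scn8a made up 50 ± 3.92% in the Pvalb, 65.6 ± 8.43% in the Sst and 86.1 ± 2.49% in the Camk2a line. The Sst shares come from the libraries that differed in interneuron RNA, as given above. The 15 min sets gave Scn1a 46.8 ± 3.13% (Pvalb, n = 4), 42.4 ± 9.17% (Sst, n = 4) and 10.9 ± 1.02% (Camk2a, n = 3). Pvalb and Sst libraries thus overlapped at 15 min within their spread, while both lay above Camk2a.

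The other alpha subunits were low. Scn3a, which is expressed mostly in the embryonic brain, averaged 16.04 to 33.04 CPM in the purified home cage groups and 29.1 to 47.2 CPM in the lysate groups. It was lower in purified RNA at 60 min in the Sst line (log2 -1.07 ± 0.33, adjusted p = 0.0220) and in the Pvalb line (log2 -0.59, adjusted p = 0.0226). In the Sst line the GC and length offsets moved it to 0.04. Scn4a of skeletal muscle and Scn10a and Scn11a of sensory neurons stayed below 0.849, 0.633 and 0.668 CPM in every library. Scn7a and the sensory Scn9a reached at most 8.93 and 8.54 CPM, and fitted fold changes of genes this low depend on the prior count.

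The sodium channel beta subunits were abundant. Scn2b averaged 471 ± 97.9 CPM in purified and 226 ± 37.5 CPM in lysate RNA of the Pvalb 60 min set (SD, n = 6 each; log2 1.36 ± 0.13, adjusted p = 5.84e-10). In the Sst 15 min set it averaged 369 ± 70.1 CPM in purified and 122 ± 14.9 CPM in lysate RNA (SD, n = 4 each; log2 2.11 ± 0.20, adjusted p = 4.79e-07).

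Scn3b (chromosome 9, 40269217 to 40291618, plus strand) went the other way in the interneuron lines. In the Pvalb 60 min set it had 118 CPM at the lowest, 154 at the median and 191 at the highest in purified RNA, against 277, 331 and 350 CPM in lysate. The groups did not overlap, and it fell by 0.77 ± 0.12 on the log2 scale (adjusted p = 3.89e-06). It fell by 1.39 ± 0.41 in the Pvalb 15 min set (adjusted p = 0.0152) and by 0.73 ± 0.19 in the Sst 60 min set (adjusted p = 0.00776). The Sst call was lost with the offsets (log2 -0.36). In the Camk2a 15 min set it averaged 691 ± 101 CPM in purified and 451 ± 71.8 CPM in lysate RNA (SD, n = 3 each) and did not pass. Scn4b, a subunit linked to resurgent sodium current, averaged 47.1 ± 6.41 CPM in Pvalb and 48.6 ± 9.68 CPM in Camk2a purified RNA at 60 min, and rose over lysate in both (log2 1.23 ± 0.18, adjusted p = 7.63e-07, and 1.25 ± 0.29, adjusted p = 0.00178).

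**Figure D2:**
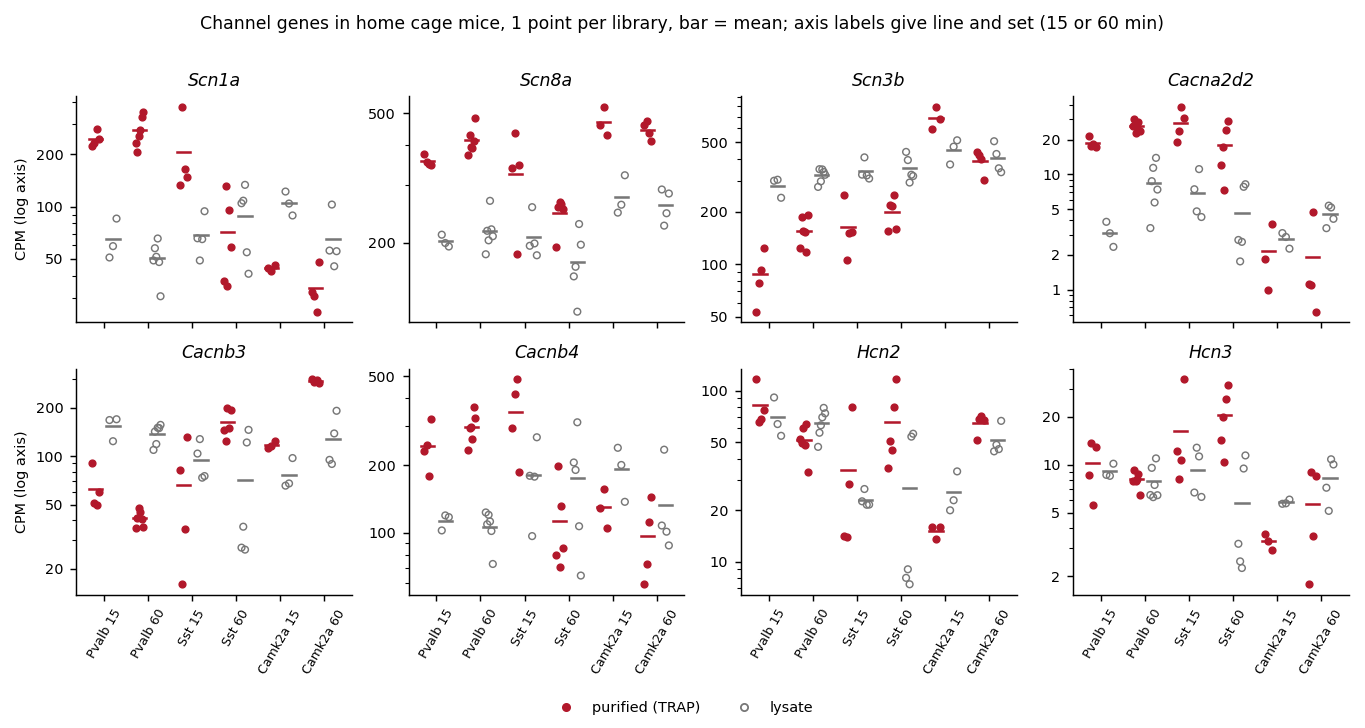
Home cage level in CPM (log axis) of 8 channel genes in each library of the Pvalb, Sst and Camk2a lines at 15 and 60 min, with purified libraries as filled red points left of lysate libraries as open grey points. Scn1a, Cacna2d2 and Cacnb4 stand above the lysate in the Pvalb line, Scn3b and Cacnb3 below it, and the purified Sst 60 min libraries spread over a wide range for Scn1a.

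Of the 10 pore-forming calcium channel subunits tested, 2 were higher and 5 lower in purified RNA of the Pvalb 60 min set (all genes 23.4% higher and 26.4% lower). In the Pvalb 15 min set Cacna1h was lower (log2 -1.56 ± 0.34, adjusted p = 0.00196) and no other passed (11.5% and 10.1%). Cacna1h, which carries low-voltage T-type current, had 5.46 CPM at the lowest, 8.70 at the median and 11.2 at the highest in purified RNA, against 37.9, 44.0 and 63.4 CPM in lysate. No purified library reached the lysate range (log2 -2.25 ± 0.23, adjusted p = 1.08e-09). Cacna1g, another T-type subunit, averaged 2.29 ± 0.51 CPM in purified and 11.9 ± 2.48 CPM in lysate RNA (SD, n = 6 each; log2 -2.08 ± 0.22, adjusted p = 3.46e-09). Cacna1h was likewise low in the Sst 15 min set, with 5.69 ± 2.001 CPM in purified and 44.9 ± 11.7 CPM in lysate RNA (SD, n = 4 each; log2 -2.47 ± 0.31, adjusted p = 7.60e-06).

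The T-type genes Cacna1h and Cacna1i were both present in the Camk2a line, and only Cacna1i was higher there than in lysate. Cacna1h averaged 51.6 ± 6.18 CPM and Cacna1i 38.5 ± 3.11 CPM in its purified home cage RNA at 60 min (SD, n = 4), where they made up 27.9 ± 2.26% and 20.6 ± 1.44% of the alpha1 family per length. Cacna1i was the 1 alpha1 gene that passed there, with 15.99 ± 6.495 CPM in lysate (log2 1.54 ± 0.31, adjusted p = 0.000488). At 15 min Cacna1h made up 17.8 ± 1.45% of the family in purified and 16.7 ± 3.36% in lysate home cage RNA (SD, n = 3 each). In the Pvalb 60 min purified RNA the leading alpha1 genes were Cacna1b of N-type channels, at 33.4 ± 8.34%, and Cacna1a of P/Q-type channels, at 20.1 ± 3.96% (SD, n = 6), the subunits that serve transmitter release. In the lysate they made up 15.8 ± 2.53% and 18 ± 1.47% (SD, n = 6). Cacna1a was lower in purified than in lysate RNA by fold change. That call was kept in 7 of 12 fits without 1 library each, and its direction turned round with the GC and length offsets. Cacna1e, which carries R-type current, averaged 38.0 ± 4.49 CPM in purified and 91.8 ± 17.0 CPM in lysate RNA of the Camk2a 15 min set (SD, n = 3 each; log2 -0.96 ± 0.25, adjusted p = 0.00872). Cacna1b was at 3.38 ± 0.263 CPM in purified and 5.65 ± 3.16 CPM in lysate RNA of that set, against 24.7 to 35.1 CPM in the other purified home cage groups, so its low level there was shared by the lysate of the same table. The L-type genes Cacna1c and Cacna1d fell in the Pvalb 60 min set (log2 -0.56, adjusted p = 0.0267, and -0.72, adjusted p = 0.00570). Cacna1f of the retina stayed at or below 2.59 CPM and Cacna1s of skeletal muscle at or below 8.63 CPM.

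Of the alpha2delta subunits, Cacna2d2 (chromosome 9, 107399612 to 107529343, plus strand) marked both interneuron lines. In the Pvalb 60 min set it had 23.0 CPM at the lowest, 25.8 at the median and 30.3 at the highest in purified RNA, against 3.42, 8.06 and 13.9 CPM in lysate (log2 1.94 ± 0.31, adjusted p = 4.67e-06). In the Sst 60 min set its purified libraries had 12.1, 17.3, 7.31, 24.4 and 28.9 CPM, against 2.697, 1.76, 2.60, 7.80 and 8.22 CPM in lysate, with 1 purified library inside the lysate range (log2 2.11 ± 0.54, adjusted p = 0.00764). Purified libraries of the Camk2a 60 min set had 1.12, 1.11, 4.74 and 0.643 CPM, against 3.41, 5.35, 5.16 and 4.12 CPM in lysate, and it did not pass. Cacna2d2 also rose at 15 min in the Pvalb line (log2 2.87 ± 0.47, adjusted p = 0.000173) and in the Sst line (log2 2.55 ± 0.71, adjusted p = 0.00929). Cacna2d1, like Cacna2d2 a binding site of gabapentin, averaged 32.6 ± 8.57 CPM in purified and 69.3 ± 17.8 CPM in lysate RNA of the Pvalb 60 min set (SD, n = 6 each; log2 -0.78, adjusted p = 0.0190). Cacna2d4 did not exceed 4.23 CPM in any library.

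The calcium channel beta subunits split between the lines at 60 min. Cacnb4 (chromosome 2, 52428320 to 52676831, minus strand) had 234 CPM at the lowest, 295 at the median and 362 at the highest in Pvalb 60 min purified RNA, against 72.7, 111 and 123 CPM in lysate (log2 1.78 ± 0.25, adjusted p = 5.37e-07). Cacnb3 (chromosome 15, 98630840 to 98644529, plus strand) had 36.0, 41.1 and 47.7 CPM in the same purified libraries, against 109, 146 and 156 CPM in lysate (log2 -1.44 ± 0.18, adjusted p = 8.27e-08). Neither pair of groups overlapped, in opposite directions. Cacnb3 in the Camk2a 60 min set averaged 292 ± 7.13 CPM in purified and 128 ± 47.2 CPM in lysate RNA (SD, n = 4 each; log2 1.46 ± 0.21, adjusted p = 9.55e-06). Per length, Cacnb4 made up 64.9 ± 4.49% of the 4 beta subunits in Pvalb (n = 6), 16.6 ± 8.32% in Sst (n = 5) and 8.31 ± 2.95% in Camk2a purified RNA (n = 4) of the 60 min home cage mice, and Cacnb3 20.4 ± 2.38%, 51.7 ± 6.64% and 56.6 ± 3.89% (SD). The Sst line did not keep this order at 15 min. There Cacnb4 made up 59.5 ± 24.6% in Sst (n = 4) and 27.8 ± 4.77% in Camk2a purified home cage RNA (n = 3). Cacnb3 made up 24.3 ± 17.8% and 56.1 ± 3.55% (SD). With the GC and length offsets Cacnb4 stayed high in the Pvalb 60 min set (log2 1.76 ± 0.14), while the fall of Cacnb3 was lost (log2 -0.24, adjusted p = 0.0963). Cacnb1 averaged 23.5 ± 3.24 CPM in purified and 108 ± 19.8 CPM in lysate RNA of the Pvalb 60 min set (SD, n = 6 each; log2 -1.90 ± 0.21, adjusted p = 3.77e-09) but 191 ± 23.0 CPM in purified and 113 ± 33.6 CPM in lysate RNA of the Camk2a 60 min set (SD, n = 4 each; log2 1.03 ± 0.23, adjusted p = 0.00130). Its share of the family in the Camk2a 15 min set was 7.69 ± 1.34% in purified and 12 ± 2.55% in lysate RNA (SD, n = 3 each).

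Base composition differs between close relatives in these families, and it moved with several results below. A stretch of coding sequence in which all 4 beta subunit genes encode the same residues shows it (GENCODE M21 gene models on GRCm38, 81 bases, 27 codons, 5′ to 3′; each stretch is spliced over 2 exons, and capitals mark G or C at the last codon position).
Cacnb1 (chr11:98009866-98010325, minus strand): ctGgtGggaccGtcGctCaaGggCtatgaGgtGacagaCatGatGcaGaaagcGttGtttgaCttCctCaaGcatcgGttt
Cacnb2 (chr2:14971613-14972112, plus strand): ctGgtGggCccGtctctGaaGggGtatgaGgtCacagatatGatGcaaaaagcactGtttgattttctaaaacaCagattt
Cacnb3 (chr15:98641228-98641450, plus strand): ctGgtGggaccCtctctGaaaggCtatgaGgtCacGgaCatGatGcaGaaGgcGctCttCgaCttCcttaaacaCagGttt
Cacnb4 (chr2:52464618-52465627, minus strand): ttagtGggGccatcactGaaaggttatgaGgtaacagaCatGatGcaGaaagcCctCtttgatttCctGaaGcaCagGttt
Cacnb1 and Cacnb3 end 20 of the 27 codons in G or C, Cacnb2 13 and Cacnb4 15, although the residues are the same. Over all annotated transcripts of a gene, with shared exons counted each time, the GC content was 59.4% for Cacnb1 and Cacnb3, 45.2% for Cacnb2 and 39.7% for Cacnb4.

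The HCN family is described by Hcn2 (chromosome 10, 79716634 to 79736108, plus strand) and Hcn3 (chromosome 3, 89146074 to 89160196, minus strand). Hcn2, which responds strongly to cyclic AMP, averaged 64.5 ± 9.09 CPM in purified and 51.1 ± 10.4 CPM in lysate RNA of the Camk2a 60 min set (SD, n = 4 each; log2 0.61 ± 0.23, adjusted p = 0.0495), a call kept in 2 of 8 fits without 1 library each. Hcn3 averaged 20.4 ± 8.55 CPM in purified and 5.77 ± 4.36 CPM in lysate RNA of the Sst 60 min set (SD, n = 5 each; log2 1.98 ± 0.45, adjusted p = 0.00383). Per length, Hcn2 made up 49.8 ± 6.47% of the family in Pvalb, 71.9 ± 6.84% in Sst and 84.3 ± 2.11% in Camk2a purified RNA at 60 min (SD, n = 6, 5 and 4), but 41.8 ± 4.75% in the Camk2a 15 min set (SD, n = 3). Hcn4 stayed at or below 0.967 CPM in every library.

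Libraries also differed in their trend with base composition. The trend of a library's gene levels with GC content was taken against the mean of its own fraction in its table, over all conditions. Purified and lysate values therefore cannot be set against each other. It is given as log2 units per 10 points of GC. Pvalb 60 min home cage libraries averaged -0.393 ± 0.086 in purified and 0.010 ± 0.199 in lysate RNA (SD, n = 6 each). The Camk2a 60 min set gave averages of 0.255 ± 0.109 in purified and 0.006 ± 0.419 in lysate libraries (SD, n = 4 each). With offsets per library for GC content and length, 16 channel genes were higher and 10 lower in the Pvalb 60 min set and 18 higher and none lower in the Camk2a 60 min set. The offsets also moved the median of all genes, to 0.33 from -0.10 and to 0.58 from -0.26, and 48% and 50.6% of all genes passed with them. Scn1a (log2 2.55 ± 0.17) and Cacna2d2 (2.76 ± 0.34) kept their place in the Pvalb 60 min set.

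The purified home cage libraries of the lines were also set against each other. Between the Pvalb and Camk2a lines at 60 min 6 channel genes were higher and 12 lower in Pvalb of 34 tested (all genes 51.8%), and at 15 min 7 were higher and 5 lower of 33 (15.2%). Scn1a was higher in Pvalb by 2.91 ± 0.39 at 60 min (adjusted p = 8.99e-08) and by 2.36 ± 0.46 at 15 min (adjusted p = 0.000700) on the log2 scale. Cacna2d2 was higher by 3.68 ± 0.57 (adjusted p = 1.15e-06) and 3.01 ± 0.84 (adjusted p = 0.0137). Scn3b was lower, with a log2 difference of -1.46 ± 0.16 at 60 min (adjusted p = 1.27e-09) and -3.07 ± 0.47 at 15 min (adjusted p = 3.74e-05). Cacnb4 (1.503 ± 0.348, adjusted p = 0.000446) was higher and Cacnb3 (-2.94 ± 0.21, adjusted p = 5.43e-14), Cacnb1 (-3.14 ± 0.24, adjusted p = 4.32e-13) and Cacna1h (-2.75 ± 0.26) lower in Pvalb at 60 min.

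Between the Sst and Camk2a lines 3 channel genes were higher and 11 lower in Sst at 60 min of 34 (all genes 24.4%), and 5 higher and 2 lower at 15 min of 33 (9.5%). Cacna2d2 (3.02 ± 0.56, adjusted p = 9.51e-05) and Hcn3 (1.63 ± 0.43, adjusted p = 0.00460) were higher and Scn3b (-1.22 ± 0.17, adjusted p = 1.25e-06) and Scn8a (-1.09 ± 0.16) lower in Sst at 60 min. At 15 min Cacna2d2 was higher by 3.73 ± 0.88 (adjusted p = 0.00576), Scn1a by 2.22 ± 0.46 (adjusted p = 0.00195) and Hcn3 by 2.29 ± 0.63 (adjusted p = 0.0182). Cacna1b was higher at 15 min in Pvalb (2.76 ± 0.34) and Sst (3.401 ± 0.348) than in Camk2a, where the low Camk2a value was shared by its lysate. With each line taken over its own lysate, Cacna1b no longer passed at 15 min.

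Between the 2 interneuron lines, 6 channel genes were higher and 8 lower in Pvalb than in Sst at 60 min of 34 (all genes 44.2%). Scn1a (2.08 ± 0.34, adjusted p = 7.23e-06) and Cacnb4 (1.52 ± 0.32) were higher and Cacnb3 (-1.85 ± 0.19), Cacna1g (-2.45 ± 0.29) and Hcn3 (-1.21 ± 0.37, adjusted p = 0.00747) lower in Pvalb. At 15 min none of 33 passed by edgeR (all genes 0.0548%), with 11 at an unadjusted p under 0.05 and 3 passing by DESeq2, and the smallest adjusted p was 0.125 for Cacna2d3. The Sst 60 min purified libraries differed among themselves in their share of interneuron RNA, as given with the shock results below. Line and table cannot be told apart in these contrasts. The GC and length offsets moved the median of all genes by -0.44 in the Pvalb over Camk2a contrast at 60 min, where Scn1a (1.83 ± 0.27), Cacna2d2 (3.98 ± 0.58) and Cacnb3 (-2.35) kept their direction.

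Without offsets, the response to shock was widest in the Pvalb 60 min set. Against home cage mice, 9 channel genes rose and 6 fell in purified RNA of shocked mice, of 31 tested. This is 48.4% of them, against 35% of all genes, a difference that was not tested. Of the pore-forming calcium channel genes 4 of 9 tested rose and none fell, and of the HCN genes 2 of 4 rose. Cacna1a had 28.4 CPM at the lowest, 44.9 at the median and 59.6 at the highest in 6 shock libraries, against 18.8, 21.6 and 22.9 CPM in 6 home cage libraries (log2 1.03 ± 0.17, adjusted p = 0.000606). Cacnb3 had 55.3, 103 and 113 CPM in shock, against 36.0, 41.1 and 47.7 CPM in home cage libraries (log2 1.14 ± 0.21, adjusted p = 0.000774). Hcn2 had 69.4, 92.1 and 132 CPM in shock, against 33.3, 50.8 and 63.6 CPM in home cage libraries (log2 0.95 ± 0.19, adjusted p = 0.00131). None of these 3 pairs of groups overlapped.

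Falling genes lay at the other end. Cacna2d1 had 7.36 CPM at the lowest, 10.9 at the median and 16.6 at the highest in shock, against 19.1, 33.9 and 41.9 CPM in home cage libraries (log2 -1.48 ± 0.25, adjusted p = 0.000594). Scn3b had 67.8, 84.4 and 104 CPM in shock, against 118, 154 and 191 CPM in the home cage (log2 -0.85 ± 0.15, adjusted p = 0.000753). Both were separated completely, whereas groups did not overlap for 10.6% of all genes. Scn1a had 122, 162 and 242 CPM in shock, against 206, 265 and 351 CPM in the home cage, with overlap (log2 -0.63 ± 0.20, adjusted p = 0.0190). Cacnb4 (log2 -0.70 ± 0.19, adjusted p = 0.00971) and Scn2b (log2 -0.52 ± 0.15, adjusted p = 0.0114) fell, and Cacna1h (log2 1.08 ± 0.26, adjusted p = 0.00440) and Hcn3 (log2 1.05 ± 0.27, adjusted p = 0.00698) rose. Scn8a stood at 360 to 494 CPM in shock and 372 to 484 CPM in home cage libraries (log2 0.00 ± 0.13, adjusted p = 0.993).

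**Figure D3:**
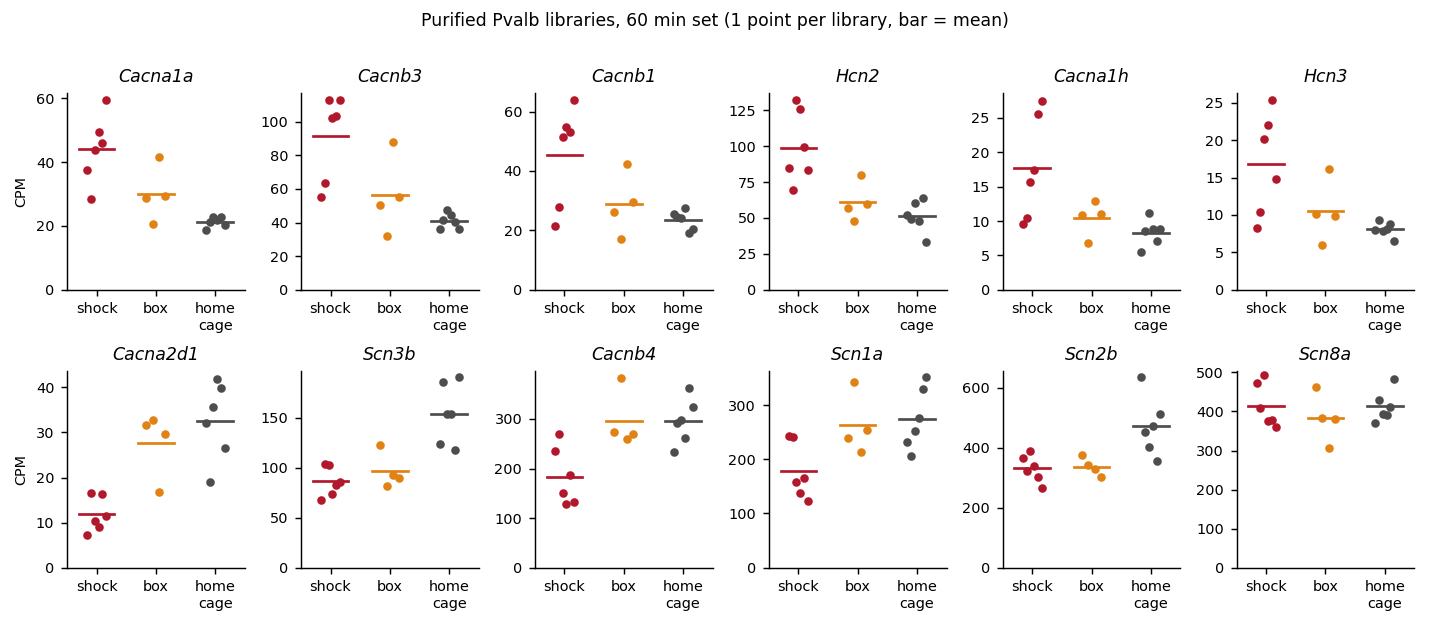
Level in CPM of 12 channel genes in each purified library of the Pvalb 60 min set, in shock, box and home cage mice from left to right. Cacna1a, Cacnb3 and Hcn2 lie above the home cage range in all 6 shock libraries, Cacna2d1 and Scn3b below it, and the box libraries lie between or spread over both.

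The box libraries did not separate from either group. No channel gene passed between box and home cage in this set by edgeR (all genes 0%), with 4 at an unadjusted p under 0.05 and 1 passing by DESeq2; the smallest adjusted p was 0.366 for Scn3b (log2 -0.70 ± 0.17). None passed between shock and box (all genes 0%), with 12 at an unadjusted p under 0.05 and 5 passing by DESeq2, and 6 passed without shock replicate 2. Throughout, the share of all genes beside such counts is that at the edgeR threshold. No share of all genes is given for the unadjusted, DESeq2 or left-out counts, so they are not read as particular to channel genes. Cacna2d1 had 31.6, 32.7, 16.7 and 29.6 CPM in the box, and Scn3b 123, 81.4, 92.7 and 89.4 CPM. The box value of Cacna2d1 was thus mostly in the home cage range and that of Scn3b mostly in the shock range.

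Genes rich in GC rose and genes poor in GC fell in this contrast. The genes that rose held between 57.2% (Cacna1a) and 65.2% GC (Hcn2), and those that fell between 39.7% (Cacnb4) and 50.4% (Scn2b). Across the 31 channel genes tested the fold change went with GC content at a Spearman rho of 0.717, and across all genes at 0.681; the genes share the same libraries and are not independent. The GC trend per library averaged 0.461 ± 0.431 in shock and -0.393 ± 0.086 in home cage libraries (SD, n = 6 each). Shock replicates 1 and 2, with trends of -0.049 and -0.121, lay nearest the home cage libraries. With offsets for GC content and length 2 channel genes passed, Cacna2d1 (log2 -0.80 ± 0.22, adjusted p = 0.0408) and Scn3b (log2 -0.59 ± 0.15, adjusted p = 0.0269), and 4.9% of all genes. Hcn2 (log2 -0.03), Scn1a (0.00) and Cacnb4 (0.05) then stood near 0 on the other side of it.

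Markers of other cells also moved in this contrast. Of the pyramidal markers 5 rose and 1 fell of 8, with a summed level of 1670 to 3142 CPM in shock and 1342 to 1879 CPM in home cage libraries. Of the GABA markers 3 fell of 8, with 2841 to 5173 CPM in shock and 4107 to 5722 CPM in the home cage, while 1 of 5 parvalbumin markers rose. Of the somatostatin markers 3 of 6 rose, among them Sst (log2 1.03 ± 0.21, adjusted p = 0.00166), with a summed level of 2629 to 3944 CPM in shock and 2026 to 2738 CPM in the home cage. Of the oligodendrocyte precursor markers 3 of 4 rose, with 60.4 to 101 CPM in shock and 27.6 to 50.5 CPM in the home cage, without overlap. Of 8 markers each, 2 astrocyte, 1 oligodendrocyte, 2 microglia and 2 endothelial markers rose, and 3 astrocyte, 4 oligodendrocyte and 1 endothelial marker fell. No marker was at 0 in either group. A score of the line's own markers against those of other classes, described with the Sst results below, was fitted as a term. With it Cacna1a, Cacnb3 and Hcn2, which were lost with the offsets, stayed past the threshold. In this line the score leaves out the somatostatin and oligodendrocyte precursor markers, whose part in the result was not tested.

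**Figure D4:**
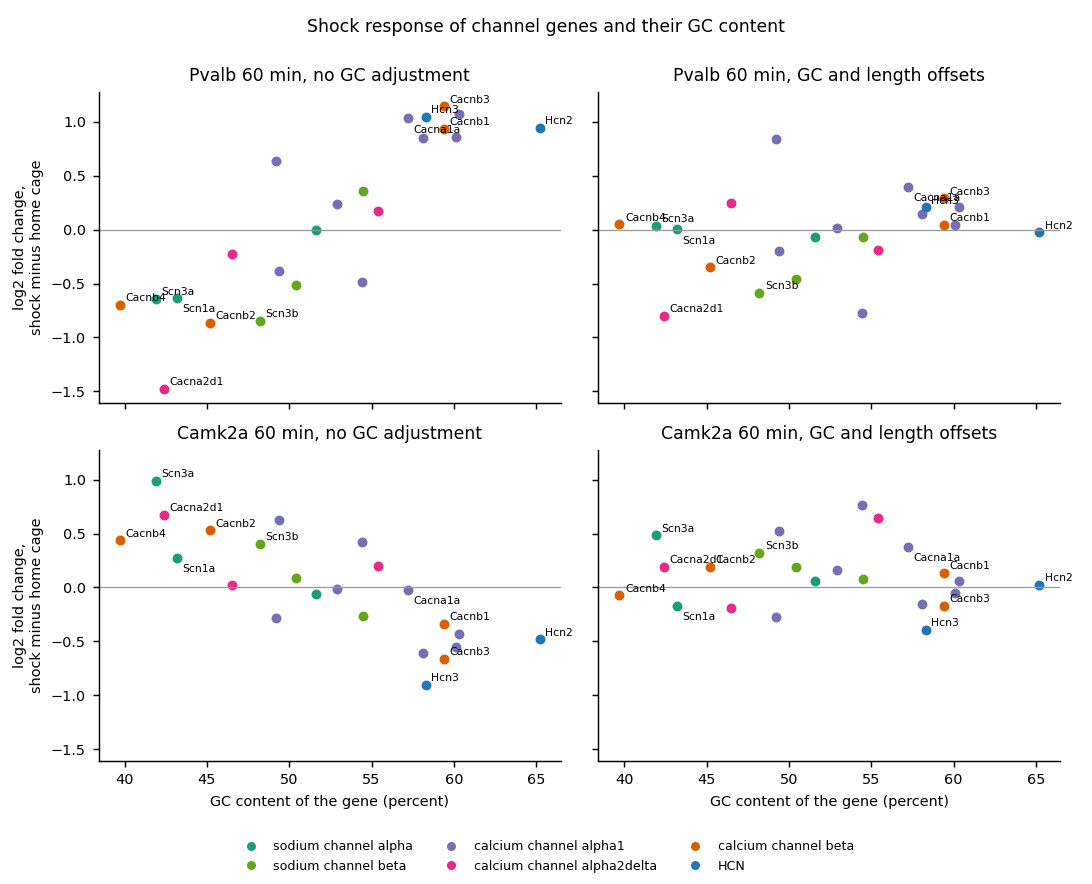
Log2 fold change of shock over home cage against the GC content of each gene in percent, for 23 channel genes in the Pvalb and the Camk2a 60 min sets, without and with offsets for GC content and length. Without offsets the points climb in the Pvalb and fall in the Camk2a panel, and with them both trends are near flat, with rho of 0.085 and -0.050 over all channel genes tested.

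In the Camk2a 60 min set 2 channel genes rose and 1 fell with shock against the home cage, of 29 tested (all genes 2.3%). Scn3a had 25.7, 24.3, 35.9, 38.8 and 36.2 CPM in shock, 16.8, 17.0 and 27.9 CPM in the box, and 17.2, 14.3, 21.9 and 13.8 CPM in the home cage (log2 shock over home cage 0.99 ± 0.23, adjusted p = 0.0477). Cacnb3 had 141, 199.6, 235, 159.8 and 155 CPM in shock, 270.4, 271 and 277 CPM in the box, and 300.0, 289, 295 and 284 CPM in the home cage (log2 -0.66 ± 0.16, adjusted p = 0.0484). Shock and home cage groups did not overlap for either gene, as for 9.73% of all genes, and the box stood near the home cage except for 1 library of Scn3a.

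All 3 calls lay close to the threshold. Of 9 fits without 1 library each, 7 gave none, while the fit without shock replicate 2 gave 3 and that without shock replicate 3 gave 6. None passed with the GC and length offsets, where 0.0409% of all genes passed, and here GC-poor genes rose (rho -0.613 over 29 genes, all genes -0.564). The GC trend averaged -0.299 ± 0.290 in shock (n = 5) and 0.255 ± 0.109 in home cage libraries (SD, n = 4). Y-linked reads marked 1 of 5 shock and 3 of 4 home cage libraries as male, and none of the 3 genes passed with sex as a term. No pyramidal, GABA, parvalbumin or somatostatin marker passed in this contrast, and 1 of 8 astrocyte markers fell.

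In the Sst 60 min set Cacna2d2 and Hcn3 fell with shock. Of 33 channel genes tested, 2 fell against the home cage (all genes 4.49%) and 3 against the box (8.18%). With the GC and length offsets 4 channel genes passed against the home cage (all genes 6.88%) and 8 against the box (12.8%). Cacna2d2 had 7.85, 1.13, 3.96 and 3.19 CPM in shock, 14.5, 10.2, 17.3 and 17.1 CPM in the box, and 12.1, 17.3, 7.31, 24.4 and 28.9 CPM in the home cage. Only 1 shock library reached the lowest home cage library, and the log2 fold change was -2.27 ± 0.52 against the home cage (adjusted p = 0.0313) and -2.02 ± 0.53 against the box (adjusted p = 0.0368). Hcn3 had 9.45, 5.37, 11.6 and 4.57 CPM in shock, 28.2, 15.9, 29.1 and 25.8 CPM in the box, and 14.3, 19.97, 10.4, 25.9 and 31.6 CPM in the home cage (log2 -1.504 ± 0.385, adjusted p = 0.0433, and -1.82 ± 0.40, adjusted p = 0.0205, in the same order), and 1 shock library overlapped the home cage range and none the box range. Cacna2d3, an alpha2delta subunit, had 48.3, 46.4, 52.5 and 47.4 CPM in shock and 141, 70.2, 79.2 and 121 CPM in the box (log2 -1.23, without overlap).

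These libraries also differed in how much RNA of the marked cells they held. Of the somatostatin markers 5 of 6 fell with shock against the home cage, with a summed level of 157 to 487 CPM in shock, 2389 to 10780 CPM in the box and 457 to 8511 CPM in the home cage, and Sst itself fell (log2 -4.93 ± 1.23, adjusted p = 0.0397). Of the GABA markers 5 of 8 fell, and 2 of 8 astrocyte and 4 of 8 oligodendrocyte markers rose. Oligodendrocyte markers summed to 7285 to 11090 CPM in shock and 2394 to 5635 CPM in the home cage. None of these markers was at 0. The own-class score, the mean log2 level of the line's own markers minus that of other classes, was -2.30, -2.03, -1.99 and -2.69 in shock, 2.36, -0.60, 1.48 and 2.28 in the box, and -0.72, 1.52, -2.29, 2.06 and 2.53 in the home cage libraries. With this score as a term no channel gene passed, and Cacna2d2 stood at -1.04 ± 0.52 and Hcn3 at -0.42 ± 0.31.

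**Figure D5:**
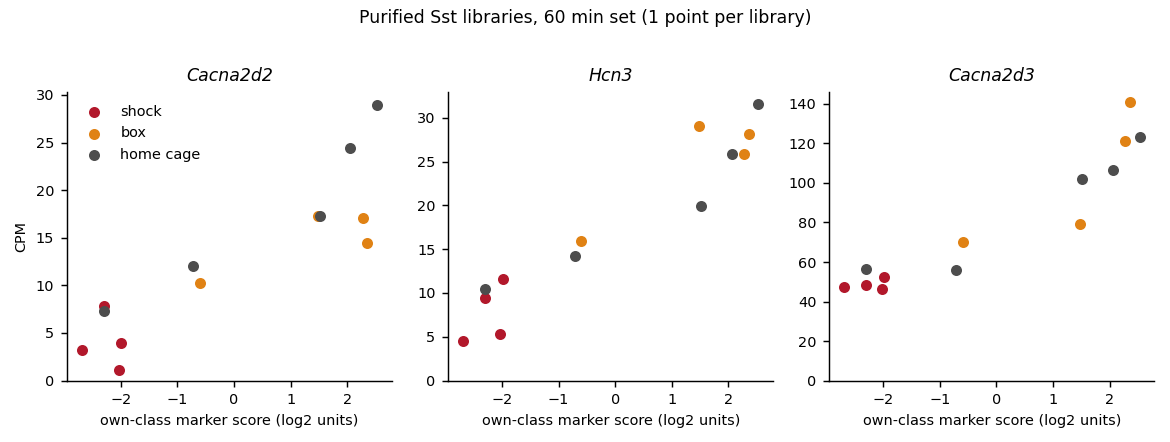
Level in CPM of Cacna2d2, Hcn3 and Cacna2d3 against the own-class score of each purified Sst 60 min library, coloured by condition. Levels climb with the score, and the 4 shock libraries sit at its low end together with home cage replicate 3, followed by home cage replicate 1 and box replicate 2.

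Single libraries decided the Sst 60 min counts. No channel gene passed against the home cage without home cage replicate 2, 4 or 5 or without shock replicate 2, 3 or 4, while 1 passed without shock replicate 1 and 3 without home cage replicate 1 or 3. Against the box none passed without box replicate 4 or shock replicate 4. No channel gene passed between box and home cage by edgeR or DESeq2, and none had an unadjusted p under 0.05 (all genes 0%).

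The other sets and the lysates gave no channel gene past the threshold by edgeR between shock and home cage. In the Sst 15 min set (all genes 1.21%) Scn1a came closest with an adjusted p of 0.0532, and 10 genes had an unadjusted p under 0.05, with 3 passing by DESeq2 and up to 3 without shock replicate 1. The cell content of these purified libraries differed too. GABA markers summed to 186 to 2762 CPM in shock and 2992 to 4678 CPM in the home cage, without overlap. Pyramidal markers summed to 6128 to 14260 and 1023 to 5115 CPM, also without overlap. Somatostatin markers, at 121 to 8672 and 2036 to 7278 CPM, overlapped. In the Pvalb 15 min set (all genes 0%) Cacnb3 had the smallest adjusted p, 0.239, with 7 genes unadjusted and 1 by DESeq2. In the Camk2a 15 min set (all genes 0%) it was Hcn2 at 0.549, with 2 unadjusted. In the lysates, with the 3 lines joined, Cacna1c reached 0.790 at 15 min (2 unadjusted, all genes 0.128%), and at 60 min 1 gene had an unadjusted p under 0.05 (all genes 0%). Between box and home cage, and between shock and box, no channel gene passed in the Camk2a sets, the 15 min sets of the other lines or the lysates, by edgeR or by DESeq2. Unadjusted p-values under 0.05 numbered at most 1 between box and home cage there, and 6 between shock and box in the Camk2a 60 min and Pvalb 15 min sets, where Cacna1g came closest (adjusted p = 0.213, Pvalb 15 min). Of all genes 0.0128% passed between box and home cage in the 15 min lysates and 0% in the others of these contrasts. A p that misses the threshold does not show that these genes stayed the same.

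The response itself was compared between lines and sets. At 60 min the shock response differed between Pvalb and Camk2a for 9 channel genes upward and 7 downward of 34 (all genes 37.6%), led by Cacnb3 (1.80 ± 0.28, adjusted p = 3.41e-05) and Scn3b (-1.24 ± 0.22). Between Pvalb and Sst 9 differed upward and 4 downward (18.2%), led by Hcn3 (2.58 ± 0.56, adjusted p = 0.000972) and with Cacna2d2 among them (2.48 ± 0.67, adjusted p = 0.00794). Between Sst and Camk2a 1 differed, Cacna2d2 (-2.48 ± 0.73, adjusted p = 0.0416; all genes 4.85%). With the GC and length offsets 3, 5 and 1 channel genes passed in these contrasts. At 15 min no channel gene differed in any of the 3 pairs by edgeR, with 2, 4 and 6 at an unadjusted p under 0.05 and 1, 2 and 1 by DESeq2 for Pvalb over Camk2a, Sst over Camk2a and Pvalb over Sst (all genes 0.00609%, 0.31% and 0.0791%).

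Between the sets, the Camk2a response at 60 min differed from that at 15 min for 3 of 31 channel genes tested (all genes 5.71%), among them Cacnb3 (-1.19 ± 0.36, adjusted p = 0.0477). None passed in the Pvalb and Sst lines (all genes 0%), with 7 and 3 genes at an unadjusted p under 0.05 and 2 passing by DESeq2 in Pvalb. Set and table cannot be told apart here.

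Proteins that bind or anchor these channels were read from a list of 25 partner genes. In home cage RNA all 25 were tested, and 9 were higher and 10 lower in purified than in lysate libraries of the Pvalb 60 min set (76%, against 49.8% of all genes). The Pvalb 15 min set gave 5 and 3 (32% against 21.7%), the Sst 15 min set 6 and 3 (36% against 29.9%) and the Sst 60 min set 2 and 4 (24% against 25.9%). The Camk2a line gave 6 and 1 at 15 min (28% against 19.6%) and 7 and 4 at 60 min (44% against 31.8%). Fgf12, a fibroblast growth factor homologue that binds sodium channels (log2 3.06 ± 0.29), and the anchoring proteins Ank3 (2.02 ± 0.31) and Ank2 (2.19 ± 0.38) were higher in Pvalb 60 min purified RNA. Pex5l, the HCN auxiliary subunit also called TRIP8b, was lower there (-1.67 ± 0.15), in the Pvalb 15 min set (-2.001), in the Sst 15 min set (-1.81) and, less clearly, in the Sst 60 min set (-0.97, adjusted p = 0.0489). With shock in the Pvalb 60 min set 5 partner genes rose, led in size by Sptbn4 (1.35) and Cabp1 (1.27), and 5 fell, among them Fgf12 (-0.77), which is 40% of the 25 tested, near the 35% of all genes. In the Camk2a 60 min set none of 24 passed.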

How the data were processed

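RNA of purified and lysate fractions was sequenced in 151 libraries with matched columns, 3 of them matched to a group but no replicate number (a pair of these shares one column name and differed beyond sampling noise); 2 samples had no matched column and are not analysed here. The deposited values are raw read counts per gene symbol in 6 tables of 23366 or 24391 genes, not normalised. Per the submitters' processing notes the authors used STAR 2.7.7a, featureCounts, DESeq2 and build GRCm38, with no role given; per the labels' protocols libraries were made with Nextera XT, a kit without strand marking, so a gene's reads may include those of an overlapping or antisense partner. Library totals set the precision, and a value of 3 counts was taken as the floor.

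From the counts, edgeR 4.0.16 (R 4.3.3; TMM scaling, filterByExpr, robust quasi-likelihood test, two-sided) was fitted across all genes, with Benjamini-Hochberg adjustment over all genes of each contrast and a threshold of 0.05. Enrichment used all libraries of a table, conditions its purified libraries, lysates the 3 lines of a set with line as a term, and line, set and response differences all purified libraries concerned. CPM values are counts over the library total. Gene positions, exon lengths, GC content and coding stretches come from GENCODE M21. DESeq2 1.42.0, no filter, offsets for GC content and length, the own-class score, sex and a replicate block were tried as alternatives. Libraries were also left out 1 at a time. These were the home cage libraries for enrichment, and the purified libraries of the compared groups for conditions, lines and sets. In the lysate contrasts whole lines were left out instead. The steps were tested on simulated data. In a contrast, the channel genes named were those past the threshold, at most 8 in each direction by smallest p, or else the one with the smallest p. The genes, partner list and 9 marker lists were chosen with earlier results of these data known. Some genes of the set are counted but not reported here. Replicates are called biological in the study's design text.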

Additional observations from a re-analysis of the deposited data

Results flagged for a closer look

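One library stood apart within its group: Cacnb4 was at 384 CPM in box replicate 2 of the purified Pvalb 60 min libraries, against 274 CPM in the next highest. Of 55 gene and group pairs examined for such a library this was the 1 found, where chance is taken to give about 1 in 20 of the pairs.

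The shock response differed between lines at 60 min by a direct test of the difference. In Pvalb over Camk2a it was higher for Hcn3 (log2 1.94), Cacnb3 (1.80), Cacna1h (1.51), Cacna1g (1.46), Hcn2 (1.42), Cacna1i (1.41), Cacnb1 (1.27) and Cacna1a (1.05). It was lower for Cacna2d1 (-2.15), Scn3a (-1.61), Cacnb2 (-1.38), Scn3b (-1.24) and Scn2b (-0.60), and for Scn9a (-4.83), whose level is too low for its fitted value to be read as a fold. The genes listed as higher held 57.2% (Cacna1a) to 65.2% GC (Hcn2), and those listed as lower 41.9% (Scn3a) to 50.4% (Scn2b). Fewer channel genes passed with the GC and length offsets, as given above.

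In Pvalb over Sst the response was higher for Hcn3 (2.58), Cacna2d2 (2.48), Hcn2 (1.31), Cacna1g (1.27), Cacna1a (1.20), Cacnb1 (1.09) and Cacnb3 (0.99). It was lower for Cacna2d1 (-1.88), Scn3a (-1.17), Cacnb2 (-1.12) and Scn3b (-0.97). In Sst over Camk2a it was lower for Cacna2d2 (-2.48). These contrasts share the Pvalb, Sst or Camk2a libraries with each other. For Pvalb over Sst, too, fewer channel genes passed with the offsets. Somatostatin markers of the Sst 60 min purified libraries summed to 157 to 487 CPM in shock and 457 to 8511 CPM in the home cage. Their GABA markers summed to 526 to 588 and 709 to 2768 CPM. The cause of these differences in response was not tested.

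In the Camk2a line the response at 60 min differed from that at 15 min for Cacnb3 (-1.19).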

How the results depend on the processing

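Unless a value is given, counts of channel genes past the threshold stayed within 1.5 times under DESeq2, no filter, the GC and length offsets, the own-class score, sex, the replicate block and fits without 1 library. Between conditions, same-numbered purified libraries did not all correlate above 0.1 in their deviations in any set. Between purified and lysate libraries 8 of 10 pairs did in Camk2a 15 min (lowest 0.0759) and 7 of 11 in Pvalb 15 min (lowest 0.00192), and fewer than all in the other sets, so whether numbers mark 1 mouse is not settled. With the replicate block 14 channel genes passed for enrichment in the Pvalb 60 min, 7 in the Pvalb 15 min and 8 in the Camk2a 15 min set, 1 for shock over home cage in Camk2a 60 min, 0 in Sst 60 min, 0 for the Camk2a set difference, and 5 and 0 for the responses of Pvalb over Sst and Sst over Camk2a at 60 min; the block changed no other count by over 1.5 times.

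Enrichment averaged over the 3 conditions gave 12 (Camk2a 15 min), 15 (Camk2a 60 min), 24 (Pvalb 15 min) and 23 (Sst 60 min). With GC and length offsets it gave 12 (Camk2a 15 min), 18 (Camk2a 60 min) and 14 (Sst 15 min), beside a moved median of all genes. Sst 60 min gave 18 by DESeq2 and 5 without its low-score libraries, a choice made after seeing the data.

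By DESeq2 shock over home cage gave 1 in Pvalb 15 min and 3 in Sst 15 min, shock over box 5 in Pvalb 60 min and 5 in Sst 60 min, and box over home cage 1 in Pvalb 60 min. It gave 7 for the Camk2a and 2 for the Pvalb set difference. For line differences it gave 3 (Pvalb over Sst, 15 min) and 11 (Sst over Camk2a, 15 min), and for responses 1, 1 and 2 at 15 min (Pvalb over Camk2a, Pvalb over Sst, Sst over Camk2a) and 5 at 60 min (Sst over Camk2a).

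With the offsets shock over home cage gave 2 (Pvalb 60 min), 0 (Camk2a 60 min) and 4 (Sst 60 min), shock over box 8 (Sst 60 min), the Camk2a set difference 0, and the 60 min responses 3 (Pvalb over Camk2a) and 5 (Pvalb over Sst). With the own-class score the shock contrasts of Camk2a 60 min and Sst 60 min, the Camk2a set difference and the Sst over Camk2a response at 60 min gave 0. With sex as a term shock over home cage gave 0 (Camk2a 60 min), 0 (Sst 60 min) and 2 (Sst 15 min), and shock over box 1 (Sst 60 min). Without a filter the Camk2a set difference and Sst 15 min shock over home cage gave 1 each. Over its own lysate, Sst over Camk2a gave 4 at each time, and without low-score libraries the Sst over Camk2a response gave 6.

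Leaving out 1 library gave 3 to 6 for enrichment in Camk2a 15 min (lowest without lysate home cage replicate 1) and 4 to 17 in Sst 60 min (lowest without lysate home cage replicate 1, highest without replicate 4). Line differences at 15 min ranged over 6 to 10 (Pvalb over Camk2a, lowest without Camk2a home cage replicate 1), 4 to 7 (Sst over Camk2a) and 0 to 1 (Pvalb over Sst). Shock over home cage ranged over 0 to 6 (Camk2a 60 min), 0 to 3 (Sst 15 min) and 0 to 3 (Sst 60 min), and shock over box over 0 to 6 (Pvalb 60 min) and 0 to 3 (Sst 60 min). The Camk2a set difference ranged over 0 to 6, and the 60 min responses over 6 to 13 (Pvalb over Sst, lowest without Sst shock replicate 2) and 0 to 3 (Sst over Camk2a).

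Among the single genes named 11 values turned round under an alternative. With the offsets these were Cacna1a (enrichment Pvalb 60 min, 0.37; Pvalb over Sst at 60 min, 0.33), Scn3a (enrichment Sst 60 min, 0.043), Cacnb4 (0.052), Hcn2 (-0.026), and Scn1a (0.0025) for shock over home cage in Pvalb 60 min, Hcn2 (-0.0068) in Camk2a 15 min, and Cacnb1 (-0.031) for the response of Pvalb over Camk2a. Averaged enrichment turned Cacna1a in Pvalb 60 min (0.18), and own lysates turned Cacna1a in Pvalb over Camk2a at 15 min (-0.21), and Cacna1c (0.068) in Sst over Camk2a at 60 min. The cause of these changes was not tested. Depth limits the genes near 0, and line and set cannot be told apart from table.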
